A study of Homo sapiens with 2 samples.

Results

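Small nucleolar RNAs and their host genes were examined in H1299, a lung carcinoma line of human origin and non-small cell type that has no p53 of its own. A group was given as p53 and the other as negative control, each on 1 Affymetrix array. The members were the probe sets whose gene symbol in the platform annotation begins with SNORD, SNORA, SCARNA or SNHG. They numbered 281 of the 33297 probe sets on the array and name 287 of 20172 genes. Of these probe sets, 202 (194 genes) carried that 1 symbol, and 79 carried several symbols and are given apart. Both groups are the same line, extracted as total RNA with Trizol. The sources used here do not give how p53 was delivered, for how long, or what the negative control received. There are no replicates, so no difference below has a replicate error or a p-value, and each describes these 2 arrays. A difference is the log2 intensity in the p53 array minus that in the negative control array.

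Small nucleolar RNAs (snoRNAs) are short non-coding RNAs, most of which are cut from introns of longer host transcripts. C/D box snoRNAs (SNORD) direct ribose methylation of ribosomal RNA, H/ACA box snoRNAs (SNORA) direct pseudouridylation, and the small Cajal body RNAs (SCARNA) do the same for spliceosomal RNAs. A few, such as SNORD3 (U3), SNORD22 and SNORD14, take part in cutting the ribosomal precursor. The SNHG genes are hosts whose exons mostly encode no protein, while many other hosts encode ribosomal proteins or translation factors. A probe set inside an intron reads the mature snoRNA and any unspliced host transcript alike, and those sources cannot be told apart here.

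The labels could be checked through known targets of p53. CDKN1A, the p21 cell cycle inhibitor gene, read 12.66 (log2 intensity) with p53 against 9.18 without, and MDM2, which encodes the ubiquitin ligase of p53, read 13.59 against 10.87. The keratin genes KRT8 (12.84 and 12.52) and KRT18 (12.47 and 12.78) and VIM (12.92 and 13.07), a mesenchymal filament gene, were bright in both arrays. The epithelial adhesion genes EPCAM (5.72 in both) and CDH1 (6.10 in both) and the leukocyte gene PTPRC (4.39 in both) lay below the median of all values, 7.38. Median log2 intensity was 7.38 in each array. Normalization had brought both arrays to almost the same distribution, so a change in total RNA per cell, or in snoRNA as a share of it, would not show as a general shift.

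Most snoRNA probe sets differed little between the arrays. Of the 202 members with 1 symbol, 3 were at least 2-fold higher with p53, 3 were at least 2-fold lower and 196 were neither. Over all 19460 single-symbol probe sets the corresponding shares were 5.13% higher and 3.65% lower, against 1.49% in each direction among the members. Their median difference was 0.00, the same as over all single-symbol probe sets. Exactly equal values in both arrays were held by 57 members (28.2%) and by 35.4% of all single-symbol probe sets, and these hold both medians at 0.00. The middle 50% of members lay between -0.16 and 0.06.

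**Figure D1:**
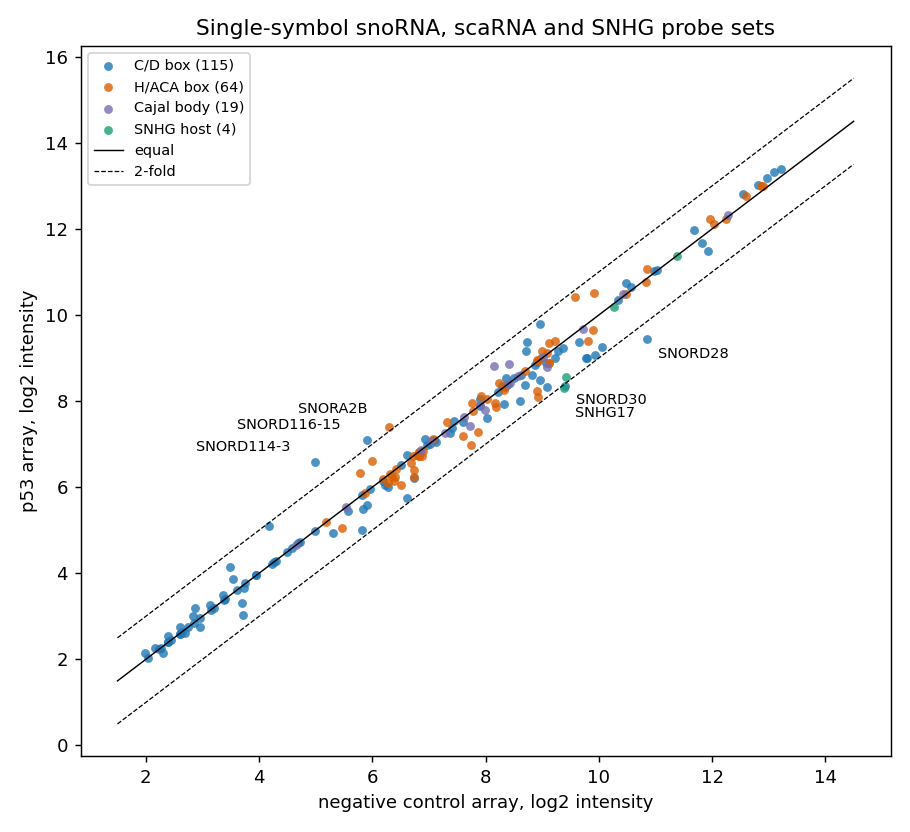
Log2 intensity of each of the 202 single-symbol member probe sets in the negative control array (x axis) and the p53 array (y axis), coloured by class, with the line of equal values and dashed lines at 2-fold. The 6 names mark the probe sets beyond 2-fold, among them SNORD28 at 9.43 with p53 against 10.86, and the remaining points lie between the dashed lines.

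The snoRNA classes had medians of 0.00, and the 4 SNHG host probe sets, of only 2 genes, had a lower one. The 115 C/D box probe sets had a median of 0.00 and ran from -1.43 to 1.60, with 2 higher and 2 lower at 2-fold. The 64 H/ACA box probe sets had a median of 0.00 and ran from -0.82 to 1.11, with 1 higher and none lower. None of the 19 Cajal body probe sets, with a median of 0.00, was past 2-fold in either direction, and they ran from -0.31 to 0.67. The 4 probe sets of SNHG hosts had a median of -0.47 and ran from -1.08 to 0.00, with 1 lower. That median lies between SNHG17 (-0.85 and -1.08) and SNHG29 (0.00 and -0.08), so it describes neither gene nor a class. At 1.5-fold, 11 of the 202 members were higher and 16 lower, where the shares over all single-symbol probe sets were 9.23% and 10.1%. None of these class differences was tested, because there is 1 array per group.

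**Figure D2:**
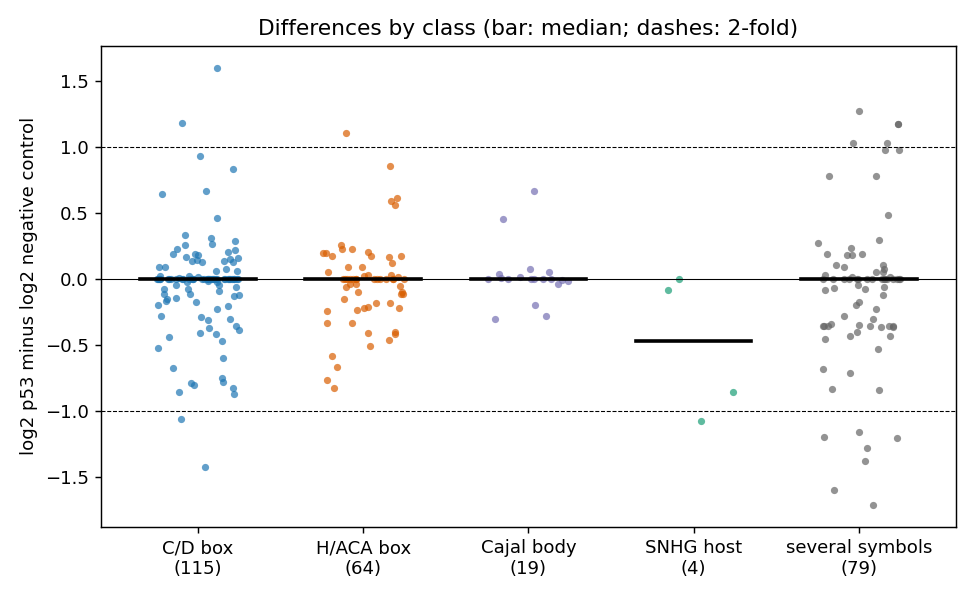
Difference (log2 p53 minus log2 negative control) of every member probe set by class, with the several-symbol probe sets last; bars are medians, dashed lines mark 2-fold, and horizontal scatter only separates points. Medians lie at 0.00 for the C/D box, H/ACA box, Cajal body and several-symbol groups and at -0.47 for the 4 SNHG host probe sets. The latter come from 2 genes, SNHG17 and SNHG29.

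The lowest C/D box members lie in 1 host, SNHG1, a non-coding gene whose introns carry a series of C/D box snoRNAs. SNORD28, a guide of ribosomal RNA methylation, read 9.43 with p53 against 10.86, a level 2.69-fold lower. SNORD30, from the same host, stood at 8.35 and 9.41, a level 2.08-fold lower. These were the only single-symbol probe sets of this host.

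The other snoRNAs of SNHG1 share their probe sets with the SNHG1 name, so host and snoRNA cannot be separated in them. Of these 6 probe sets, 5 were at least 2-fold lower with p53. Among all 1754 several-symbol probe sets, 3.14% were at least 2-fold lower and 4.05% at least 2-fold higher. SNORD25 had the largest difference of the locus as deposited, reading 5.61 with p53 against 7.32. Its p53 value lay under the 25th percentile of all values, 5.97. With values under that percentile raised to it, SNORD25 stood at -1.34, smaller in size than SNORD28 (-1.43) and SNORD22 (-1.38). The probe set of SNORD22, which acts in processing of the small subunit ribosomal RNA, read 6.38 with p53 and 7.76 in the control. SNORD27 read 6.98 and 8.26, SNORD26 read 9.12 and 10.32, and SNORD31 read 6.98 and 8.14. SNORD29 was the exception, reading 11.07 with p53 against 10.83. The median over the 8 probe sets was -1.24, with 7 below 0 and 1 above. Because neighbouring snoRNAs share a host transcript, these 8 are not independent. This locus was singled out after its values were seen.

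GAS5, another non-coding host of C/D box snoRNAs and a transcript known to gather in growth-arrested cells, showed smaller differences in the same direction. Of 10 probe sets, 7 with 1 symbol and 3 with several, 9 were below 0, 1 was above and none reached 2-fold, with a median of -0.41. SNORD78 had the most negative difference, reading 9.07 with p53 against 9.93. SNORD77 read 4.99 and 5.82 and lay under 5.97, the 25th percentile of all values, in both arrays, whereas SNORD75 read 8.99 and 9.78. The probe sets of SNORD76 with GAS5 (10.79 and 11.47) and SNORD47 with GAS5 (9.68 and 10.21) were also lower. SNORD79 (9.36 and 9.65), SNORD74 (11.68 and 11.83), SNORD81 (9.23 and 9.36) and SNORD44 (9.16 and 9.28) lay within 0.5 of each other between arrays. SNORD80 with GAS5 was the 1 above 0, at 9.70 and 9.52. No single-symbol probe set of GAS5 itself was among those used.

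SNHG17, which has host probe sets of its own, had a lower host and near-equal snoRNAs. Its probe sets read 8.31 with p53 against 9.39, a level 2.11-fold lower, and 8.56 against 9.42, a level 1.81-fold lower. The H/ACA box snoRNAs in its introns read 10.49 and 10.49 for SNORA71A, 12.24 in both arrays for SNORA71C, and 12.99 and 12.90 for SNORA71D. The probe set shared by SNHG17 and SNORA71B read 9.09 and 9.26. The host probe sets thus differed by -0.85 and -1.08 while none of the 4 snoRNA probe sets differed by more than 0.17. The remaining single-symbol host, SNHG29, read 11.38 in both arrays in 1 probe set and 10.18 against 10.26 in the other.

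Apart from SNHG17 and SNHG29, SNHG names occurred only beside another symbol. Of the 20 several-symbol probe sets with an SNHG name, that of SNHG17 with SNORA71B included, 6 were at least 2-fold lower and none higher. The shares over all several-symbol probe sets were 3.14% lower and 4.05% higher, so none higher among 20 says little. Of the 6 lower ones, 5 belong to SNHG1. The remaining one was SNHG15 with SNORA9, at 8.89 with p53 and 10.10 in the control. SNHG3 shared a probe set with its neighbour RCC1 that read 9.20 and 10.04, whereas the probe set of SNHG3 with SNORA73A read 11.86 and 11.59. The 4 probe sets of SNHG12 with its H/ACA box snoRNAs ran from -0.20 to 0.00. SNHG16 with SNORD1C read 9.97 and 9.92. SNHG10 with SCARNA13 (9.61 in both) and SNHG32, sharing 2 probe sets with SVIL (11.03 in both), held equal values. Outside SNHG1 the median of the 14 probe sets was -0.02, and 1 of them was at least 2-fold lower.

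**Figure D3:**
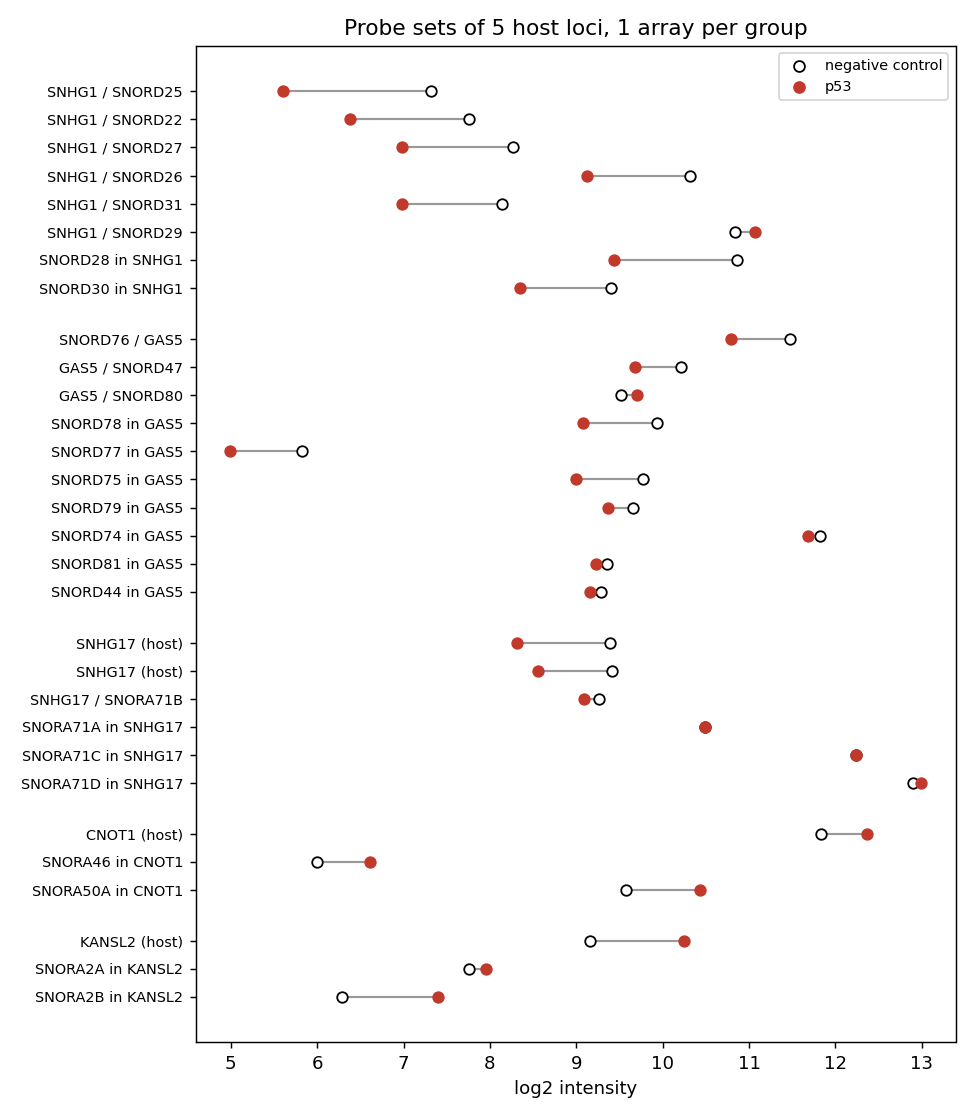
Log2 intensity in the negative control array (open points) and the p53 array (filled points) of every probe set at 5 host loci, with host probe sets marked and shared probe sets given by all their symbols. At SNHG1, 7 of 8 probe sets lie lower with p53, at SNHG17 the host lies lower and SNORA71A, SNORA71C and SNORA71D lie near the control, and at CNOT1 and KANSL2 host and snoRNAs lie higher.

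Promoters of the hosts are shown because many snoRNA hosts start transcription in a run of pyrimidines, a feature they share with ribosomal protein genes and known as a terminal oligopyrimidine tract. The sequences are those of RefSeq on GRCh38.p14, 250 bases before to 50 after the annotated start, written 5′ to 3′ on the gene's strand, with the first 15 transcribed bases in capitals. Of the hosts shown, SNHG1 (chr11:62855836-62856135, minus strand) had 7 of 8 probe sets at least 2-fold lower. SNHG17 (chr20:38435279-38435578, minus strand) had lower host probe sets, at -0.85 and -1.08, and snoRNAs near the control. The hosts shown were chosen with their values known. SNHG15 with SNORA9 (-1.21) and DKC1 (-1.14) were also lower and are not shown. SNHG12 (chr1:28581824-28582123, minus strand) and ZFAS1 (chr20:49278392-49278691, plus strand) had no probe set past 2-fold. ZFAS1 read 9.90 in both arrays, while its snoRNA SNORD12C read 8.50 with p53 and 8.97 in the control.
SNHG1: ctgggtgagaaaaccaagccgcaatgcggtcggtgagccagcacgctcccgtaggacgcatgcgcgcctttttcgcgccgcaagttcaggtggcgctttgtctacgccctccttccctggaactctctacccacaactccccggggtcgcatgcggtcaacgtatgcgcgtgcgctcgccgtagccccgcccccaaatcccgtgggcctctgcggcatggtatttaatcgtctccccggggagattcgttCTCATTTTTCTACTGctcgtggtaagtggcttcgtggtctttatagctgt
SNHG17: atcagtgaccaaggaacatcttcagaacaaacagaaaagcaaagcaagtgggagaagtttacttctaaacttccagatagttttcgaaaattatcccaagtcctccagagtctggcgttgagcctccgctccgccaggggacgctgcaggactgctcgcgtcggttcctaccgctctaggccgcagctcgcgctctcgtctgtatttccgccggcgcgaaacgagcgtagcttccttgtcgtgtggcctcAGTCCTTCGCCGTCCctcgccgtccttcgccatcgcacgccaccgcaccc
SNHG12: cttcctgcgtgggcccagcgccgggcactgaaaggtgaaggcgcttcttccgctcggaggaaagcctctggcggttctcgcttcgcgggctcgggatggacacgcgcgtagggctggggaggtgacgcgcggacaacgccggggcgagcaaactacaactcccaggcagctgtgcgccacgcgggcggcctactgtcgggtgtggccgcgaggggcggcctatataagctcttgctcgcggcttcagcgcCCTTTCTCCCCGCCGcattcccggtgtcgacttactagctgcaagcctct
ZFAS1: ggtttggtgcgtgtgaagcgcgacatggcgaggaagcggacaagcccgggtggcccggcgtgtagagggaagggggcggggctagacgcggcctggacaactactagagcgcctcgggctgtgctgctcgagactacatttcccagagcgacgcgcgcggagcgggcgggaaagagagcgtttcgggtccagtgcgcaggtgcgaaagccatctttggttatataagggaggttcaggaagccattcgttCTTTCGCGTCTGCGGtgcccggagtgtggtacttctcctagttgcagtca
A start at C followed by 4 bases that are each C or T was searched on the gene's strand at the annotated start alone. SNHG12 and ZFAS1 held it, and SNHG1 and SNHG17 did not at the start RefSeq gives. Whether the start went with the differences was not tested, and the hosts are read through unlike probe sets. SNHG5, whose snoRNAs SNORD50A and SNORD50B stood at -0.23 and -0.42, held it. SNHG29, level in 1 probe set but with its snoRNA SNORD49A at -0.41, did not. SNHG16 also lacked it, at 0.05 with SNORD1C, -0.28 for SNORD1A and -0.11 for SNORD1B. So did SNHG8, whose snoRNA SNORA24 stood at -0.06, and GAS5, with a locus median of -0.41. SNHG3, at -0.84 with RCC1 and 0.27 with SNORA73A, lacked it too. Of 104 host genes of members, 87 had a sequence, and 26 of these (29.9%) held such a start, against 4.04% of 27305 promoters. CACGTG, the letters of an E-box, which read the same on both strands, occurred in 8 of the 87 (9.20%) and in 7.43% of all promoters. It occurred in none of the 4 sequences above. These matches are letters in a window and do not show what binds there.

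All 3 single-symbol members at least 2-fold higher had a mean of both arrays below the median of all values. SNORA2B, an H/ACA box snoRNA, read 7.39 with p53 against 6.29, a level 2.15-fold higher. It lies in KANSL2, a subunit gene of a histone acetyltransferase complex, which itself read 10.24 and 9.15, while SNORA2A of the same host read 7.96 and 7.75. SNORA50A, at 10.43 against 9.57, and SNORA46, at 6.61 against 5.999, lie in CNOT1, the scaffold gene of the CCR4-NOT deadenylase complex, which read 12.36 and 11.83. In both hosts every measured snoRNA and the host were higher with p53. SNORA2B passed 2-fold as deposited but stood at 0.86 when an offset of 32 was added before the logarithm.

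Both remaining higher members belong to tandem repeat clusters of imprinted regions. SNORD114-3, in MEG8, read 6.59 with p53 and 5.00 in the control, and SNORD116-15 read 7.09 and 5.91. Of the 46 single-symbol probe sets of SNORD113, SNORD114, SNORD115 and SNORD116, 45 had a mean of both arrays below the 25th percentile, 5.97. All 20 SNORD115 probe sets lay between 2.03 and 4.50 by that mean, and none was past 2-fold. SNORD115 and SNORD116, of the SNHG14 transcript in the Prader-Willi region, are best known from neurons. Copies are near-identical, so a probe set can read several of them and each value is uncertain as to copy. With values under the 25th percentile raised to it, SNORD114-3 stood at 0.62, under 2-fold, and SNORD116-15 at 1.12, still past it. SNORD116-15 was the 1 copy with a mean, 6.50, above that percentile. Without these clusters 1 single-symbol member was at least 2-fold higher and 3 lower.

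The values next to the 2-fold threshold show how closely members lay around it. SNORD116-14 (0.93) and SNORA50A (0.86) lay just under it among higher members, and SNORD116-15 (1.18) and SNORA2B (1.11) just over it. Among lower members, SNORD51 (-0.88) and SNORD78 (-0.86) lay just under and SNHG17 (-1.08) and SNORD30 (-1.06) just over. SNORD51 read 5.74 with p53 and 6.61 in the control, while its host EEF1B2, a translation elongation factor gene, read 8.77 and 8.88.

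The brightest 3 single-symbol probe sets of the C/D box class and of the H/ACA box class read nearly the same in both arrays. SNORD41 read 13.40 with p53 and 13.22 in the control, and SNORD33 read 13.19 and 12.97. SNORD13, which guides acetylation of the small subunit ribosomal RNA and is transcribed from a gene of its own, read 13.33 and 13.10. Among H/ACA box members SNORA71D, SNORA3A (12.99 and 12.87) and SNORA23 (12.77 and 12.60) were the brightest, and all 6 differed by 0.23 or less. Other members above the median differed more, such as SNORD28 (9.43 with p53 and 10.86 in the control) and SNORA50A (10.43 and 9.57). Intensities of different probe sets cannot be ranked as amounts. SNORD3, the U3 RNA needed for early cuts of the ribosomal precursor, had 5 probe sets that carry all its gene names and held the same pair of values, 10.45 and 10.81, so they count as 1 reading.

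Other H/ACA box members with larger differences lay in different kinds of host. SNORA3B read 8.09 with p53 and 8.92 in the control, whereas SNORA3A of the same host, RPL27A, did not share this, and the host read 11.59 and 11.62. SNORA62 read 6.97 and 7.73, and SNORA6 read 7.28 and 7.87. Both lie in RPSA, the gene of a small subunit ribosomal protein. SNORA74A read 8.24 and 8.91 and had several candidate hosts. SNORA14A was higher with p53, at 10.50 against 9.91, and lies in POR, the gene of a microsomal electron donor, which read 9.38 and 9.62.

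Cajal body RNAs had the narrowest range among the snoRNA classes but also the fewest probe sets, 19 against 64 H/ACA box and 115 C/D box. A range tends to widen with the number of probe sets, so this says little about the class. SCARNA9, a guide for spliceosomal RNA, had 1 probe set at 8.82 with p53 and 8.15 in the control and another at 7.27 and 7.29, so its probe sets disagreed. SCARNA5 read 8.86 and 8.41, SCARNA8 read 7.42 and 7.72, SCARNA16 read 8.80 and 9.08, and SCARNA4 read 7.79 and 7.99. The bright members SCARNA12 (12.33 and 12.29), SCARNA7 (10.50 and 10.42) and SCARNA10 (9.68 and 9.72) differed by less than 0.1.

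Several scaRNAs lie in genes of the cell cycle that were lower with p53, and none of their probe sets reached 2-fold lower. SCARNA10 differed by -0.04, while its host NCAPD2, a condensin subunit gene, read 10.52 with p53 and 11.78 in the control. SCARNA8 differed by -0.31, and its host HAUS6, an augmin subunit gene of the spindle, read 8.75 and 9.95. The probe sets of SCARNA9 differed by 0.67 and -0.02, and its host CEP295, a centriole gene, read 7.40 and 8.56. SCARNA23 held the same value, 5.53, in both arrays, while POLA1, the catalytic subunit gene of DNA polymerase alpha, read 8.14 and 9.68. SCARNA14 was equal at 4.66, while TIPIN, a replication fork protein gene, read 8.93 and 10.16. SCARNA14 and SCARNA23 lay below the 25th percentile, where a level cannot be told from background.

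Of the single-symbol members, 7 probe sets lay in 6 hosts that were at least 2-fold lower, with host differences of -1.54 to -1.04. None of the 7 was itself 2-fold lower, where the share over all single-symbol probe sets is 3.65%, so that count alone says little. Their median was -0.02, with SCARNA14 and SCARNA23 included despite their low intensity. DKC1, a host that was also at least 2-fold lower, has its snoRNAs on several-symbol probe sets and is not among the 6. There the probe set of SNORA56 with DKC1 was lower like its host, at -1.60, and that of SNORA36A was near the control, at -0.07. The H/ACA box RNA among these, SNORA70D in PHLPP2, read 6.72 with p53 and 6.87 in the control. Only 2 hosts were at least 2-fold higher, KANSL2 and COBLL1. The snoRNA in COBLL1, SNORA70F, read 6.34 and 5.78 against 10.08 and 8.32 for its host. Hosts were assigned by position in the RefSeq gene table on GRCh38.p14, without regard to strand.

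Over the 99 snoRNA probe sets with a measured host, in 72 hosts, the difference of the snoRNA and that of the host had a Pearson r of 0.30 and a Spearman rho of 0.29. This is a description, since all points share the same 2 arrays and snoRNAs of 1 host share it. Signs were the same in 45 pairs, opposite in 21, and at least 1 value was 0 in 33. By class Pearson r was 0.28 for 35 C/D box, 0.53 for 50 H/ACA box and 0.12 for 14 Cajal body probe sets. Spearman rho was 0.19, 0.49 and 0.43 in that order, so the C/D box and Cajal body classes change places with the measure. Over the 63 pairs whose snoRNA mean reached the median of all values, r was 0.12.

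**Figure D4:**
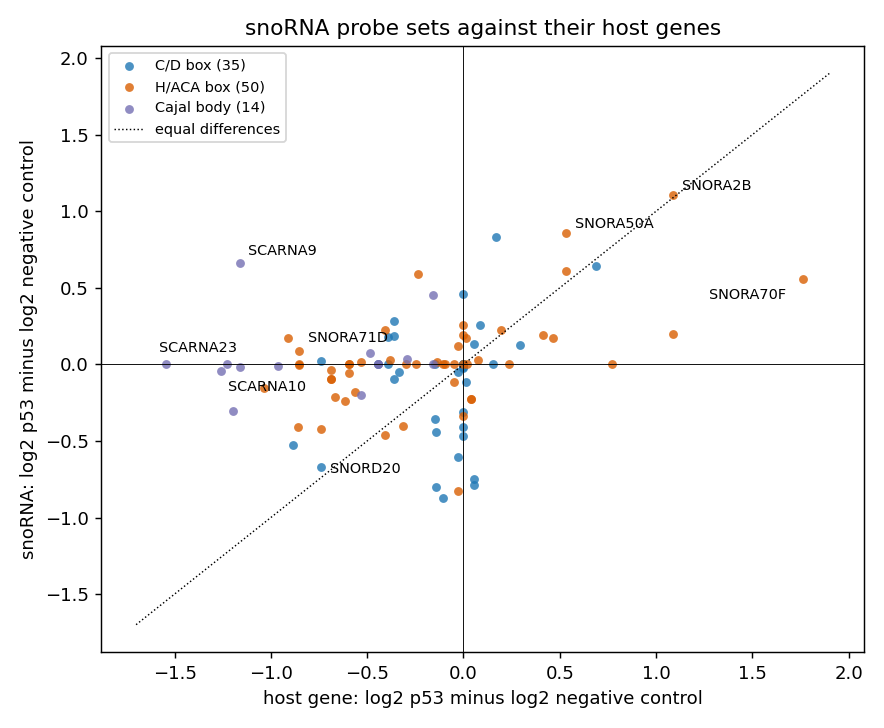
Difference of each of 99 snoRNA probe sets (y axis) against the difference of its host gene (x axis), both as log2 p53 minus log2 negative control, coloured by class; the dotted line marks equal differences. SNORA2B lies on that line, while SCARNA10 and SCARNA23 lie near 0 on the y axis at host differences of -1.26 and -1.54.

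Hosts with 3 or more measured snoRNAs differed in how alike their snoRNAs were. In RPL13A, a ribosomal protein gene, SNORD32A, SNORD33, SNORD34 and SNORD35A ran from -0.02 to 0.27. In RPL23A, whose transcript differed by 0.06, SNORD4A (8.33 with p53 and 9.08 in the control) and SNORD4B (9.26 and 10.05) were lower, and SNORD42A (8.04 and 7.91) was not. NCL, the gene of the nucleolar protein nucleolin, read 11.39 and 12.13. Its snoRNAs differed by -0.67 for SNORD20, which at 3.04 and 3.71 lay below the 25th percentile, -0.42 for SNORA75 and 0.02 for SNORD82. RPL3 read 13.42 in both arrays, and its snoRNAs SNORD43, SNORD83A and SNORD83B ran from -0.31 to -0.01. In TBRG4, which read 9.38 and 9.98, SNORA5A, SNORA5B and SNORA5C ran from -0.06 to 0.00. In RABGGTB, which read 10.05 and 10.41, SNORD45A was at 0.28, SNORD45B at 0.19 and SNORD45C at -0.09. SNORA15, a gene placed in CCT6A, had 3 probe sets between -0.10 and -0.04, of which 2 held the same pair of values. Hosts were assigned by the position of the gene, so whether each of these probe sets lies in CCT6A was not checked.

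Several-symbol members reached 2-fold in 12 of 79 probe sets, with 5 higher and 7 lower, which are 3 and 7 distinct pairs of values. The shares were 6.33% and 8.86%, against 4.05% and 3.14% over all several-symbol probe sets. The higher readings were SNORD62A with SNORD62B (8.46 with p53 and 7.29 in the control), SNORA59A with SNORA59B (8.78 and 7.75), and 1 probe set of SNORA40 with TAF1D (9.18 and 7.91). A second probe set with the names SNORA40 and TAF1D read 8.48 and 8.71, so the 2 disagree in direction. Whether both of these probe sets lie in TAF1D was not checked. TAF1D, a subunit gene of the RNA polymerase I selectivity factor, itself read 10.41 and 10.71. The lower readings outside SNHG1 were SNORA9 with SNHG15, above, and SNORA56 with DKC1, at 7.61 and 9.20. SNORA36A, with DKC1 and MIR664B, read 7.24 and 7.32.

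Most genes of proteins that bind or process snoRNAs read lower with p53. Of 24 measured genes of snoRNP proteins, assembly and processing, 3 were at least 2-fold lower, 1 was higher and 20 were neither. Over all 18417 genes, with 1 probe set each, 3.7% were at least 2-fold lower and 5.22% higher. The median of the list was -0.32, with 18 of 24 below 0. Over all 18417 genes the median was 0.00, with 6963 below 0, 4950 above and 35.3% equal.

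DKC1, the pseudouridine synthase of H/ACA box particles, read 9.82 with p53 against 10.96, a level 2.21-fold lower. NOP10 (12.15 and 12.43), NHP2 (10.10 and 10.35) and GAR1 (8.31 and 8.43), which complete the H/ACA core, were within 0.5. NOP58, a scaffold of C/D box particles, was 2.07-fold lower at 10.04 and 11.09, and FBL, the methyltransferase, read 12.59 and 12.70. The core genes thus differed in size, with 1 of 4 H/ACA and 1 of 2 measured C/D genes past 2-fold. The C/D box and H/ACA box members had medians of 0.00, held there by equal values. The 69 C/D box probe sets outside the SNORD113 to SNORD116 copies had a median of -0.05, with 38 below 0 and 21 above. At 1.5-fold, 11 of these 69 were lower and 2 higher. Over all 19460 single-symbol probe sets, 10.1% were lower and 9.23% higher at 1.5-fold. Of those 19460, 7365 were below 0 and 5207 above, so they leaned the same way. The clusters were left out after seeing the data, and the difference was not tested.

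Among 9 measured assembly factors, ZNHIT6, needed for C/D box particles, was 2.58-fold lower at 8.75 and 10.12. NUFIP1, an adaptor of assembly (8.52 and 9.46), NAF1, which loads H/ACA proteins (7.78 and 8.52), and the ATPase gene RUVBL1 (10.22 and 10.95) were lower by less than 2-fold. TGS1, which trimethylates the cap of some small RNAs, was the 1 higher gene, 3.76-fold, reading 12.05 with p53 against 10.14. COIL, the gene of the Cajal body protein coilin, read 11.99 and 11.38, and NOLC1, a nucleolar and Cajal body chaperone gene, read 10.48 and 11.38. Of the processing nucleases, PARN, which trims tails (10.50 and 9.79), was higher and EXOSC10, of the nuclear exosome (11.28 and 11.95), lower, both by less than 2-fold.

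**Figure D5:**
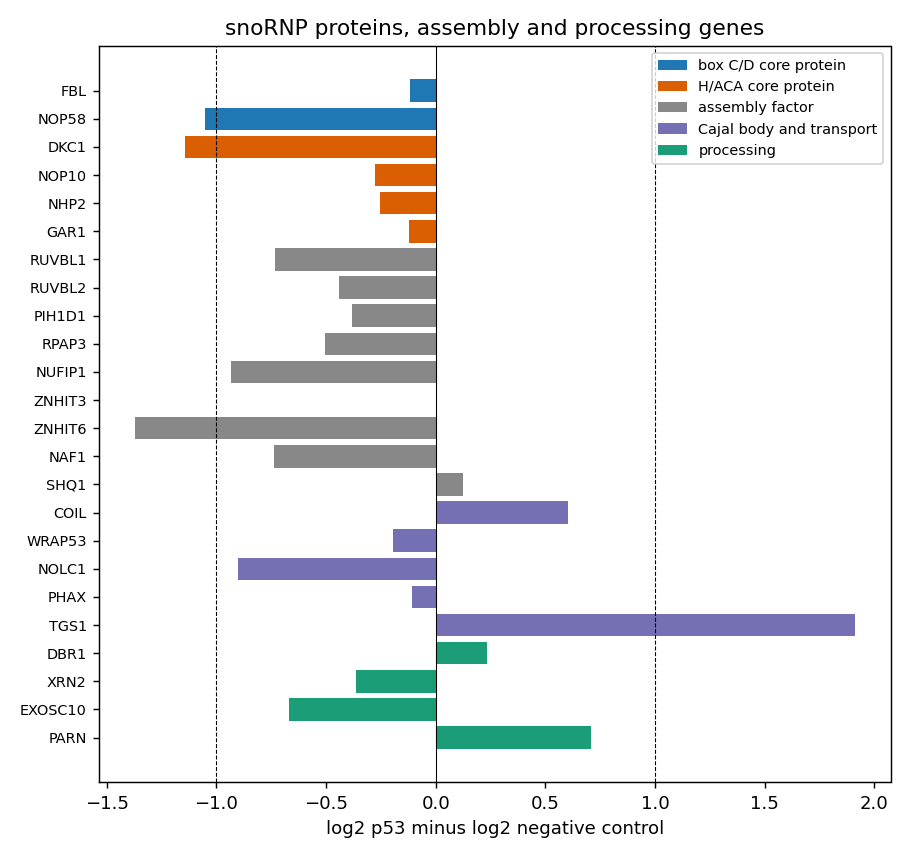
Difference (log2 p53 minus log2 negative control) of the 24 measured snoRNP, assembly and processing genes, coloured by role, with dashed lines at 2-fold. ZNHIT6 (-1.37), DKC1 (-1.14) and NOP58 (-1.05) lie beyond the lower line and TGS1 (1.91) beyond the upper.

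Most other known hosts differed by less than 2-fold, as did most genes. Of 25 measured genes on the list of hosts without an SNHG name, 24 were neither 2-fold higher nor lower. The remaining one was DKC1, and the median of the list was 0.00. Over all 18417 genes, 3.7% were at least 2-fold lower and 5.22% higher, with a median of 0.00. The 13 ribosomal protein hosts ran from -0.31 for RPL23 to 0.17 for RPS20, with a median of 0.02. SNORD54, in RPS20, nevertheless read 9.79 with p53 and 8.95 in the control. HSPA8, a chaperone gene, read 14.03 and 14.17, while its snoRNAs SNORD14E (8.99 and 9.79) and SNORD14C (11.49 and 11.93), copies of an RNA that acts in small subunit processing, were lower. NCL (-0.74), CNOT1 (0.53) and TNPO2 (-0.39), a nuclear import receptor gene, followed DKC1 in size.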

How the data were processed

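The authors deposited a log2 intensity for each probe set on each array, and the submitters' processing notes name RMA, robust multi-array averaging, as the method. The sources used here give neither software version nor genome build. Values ran from 1.41 to 14.68, the range of a log2 scale. Sorted values of the arrays differ by at most 0.192. Precision is limited by having 1 array per group.

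Of the probe sets, 19460 had 1 gene symbol in GEO's platform annotation, 1754 several and 12083 none in the table used here. Members were taken by symbol, at probe set level and with no intensity filter. Of the 202, 103 had a mean of both arrays at or above the median, and 144 at or above the 25th percentile. For other genes the brightest probe set was used, with symbols updated through RefSeq identifiers. A host was the protein-coding or lncRNA gene whose span holds the snoRNA, leaving out readthrough and LOC names. The table gives no strand, so strand was not used as had been planned. Of 198 snoRNA probe sets, 190 had a host, 5 had several candidates and 3 none.

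A call here means a 2-fold or larger difference and involves no test. Genes were named by that rule, by the largest 6 and brightest 3 per class, by SNHG symbol, by host with 3 or more snoRNAs, and by list. The result of 1 host that this rule names is not reported here. Members and lists were chosen with earlier results of these data known, and other names were chosen after their values were seen. The counting was checked on simulated data. Python 3.11.15, numpy 2.4.6, pandas 2.3.3, scipy 1.17.1, statsmodels 0.14.6 and matplotlib 3.10.9 were used.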

Additional observations from a re-analysis of the deposited data

How the results depend on the processing

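Leaving out an array was not possible with 1 per group. No paired analysis was possible because each group has 1 array. Medians were taken as moved beyond 0.144, the robust standard deviation between probe sets of 1 gene (275 genes), correlations beyond 0.1, and counts beyond 1.5 times. Of 105 recomputed values, 91 stayed within these limits, 14 moved and none reversed. The counts of 3 higher and 3 lower members became 11 and 16 at 1.5-fold, 1 and 0 at 3-fold, and 8 and 10 with several-symbol members included. The higher count was 0 among members whose mean of both arrays reached the median, 1 with an offset of 32 before log2, and 1 without the SNORD113 to SNORD116 clusters, an alternative chosen after seeing the data. SNORD30 and SNORD31 with SNHG1 fell just short of 2-fold with the offset, at -0.99 each. The SNHG host median of -0.47 was -0.85 without equal values and -0.15 with several-symbol members, and thus rests on few probe sets. The several-symbol median of 0.00 was -0.18 with a mean filter at the median and -0.20 at the 25th percentile. The host correlation of 0.30 was 0.12 over snoRNAs at or above the median. Centring, lowess trend removal and quantile normalization moved none of the counts or medians beyond these limits, and could hardly have done so. The median difference of all probe sets was already 0.00, and sorted values of the arrays differed by at most 0.192. The lowess trend ran only from -0.06 to 0.05. These settings are counted among the 105, so that their values stayed says little. Signal near background limits the copy clusters most, as 45 of 46 lay below the 25th percentile.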
